A study of Homo sapiens with 40 samples.

Results

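Retained introns that lie beside a tested cassette exon were compared between cells running on mutant and on wild-type RNA polymerase II. A cassette exon is an exon that a transcript can either include or skip. An intron was taken when its chromosome, strand, start and end equalled those of an intron belonging to an RNA-seq exon event. This was the intron upstream of the exon, the intron downstream of it, or the whole span from one outer exon to the other, which is the intron left when the exon is skipped. The rule found 638 of the 2699 introns in the deposited intron tables. Of these, 291 were upstream, 294 downstream and 112 whole-span introns, and because introns can belong to several exon events, 37 were both upstream and downstream, 12 upstream and whole-span and 10 downstream and whole-span. The introns lay in 476 genes by identifier, of which 471 had a symbol.

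The cells were HEK293 Flp-in T-REx, human embryonic kidney cells in which a gene can be placed at a single inducible locus. These cells carried an α-amanitin-resistant Rpb1, the large subunit of RNA polymerase II, either with the substitution R749H or E1126G or as the wild type (WT). In all groups, the WT controls included, doxycycline induced the transgene for 12 to 16 h, and α-amanitin then blocked the cells' own polymerase for 42 h. RNA-seq of polyadenylated RNA had 2 libraries each of R749H, E1126G and WT, which the extract protocol calls biological replicates, and RASL-seq, in which probe pairs are ligated on selected junctions between exons and counted, had 3 libraries each of R749H, H1106Y, E1126G and WT. No intron table of H1106Y was used here.

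R749H and H1106Y are known as slow forms of the polymerase and E1126G as a fast one, so the comparison addresses how elongation rate bears on splicing. Splicing mostly takes place while the polymerase is still transcribing. A slow polymerase leaves more time between the synthesis of competing splice sites, and a fast one less. Cassette exons and retained introns in genes of splicing factors are known as switches that can hold a transcript in the nucleus or send it to decay, and through them such factors adjust their own level.

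The values of the 7 deposited tables are one pooled ratio per genotype with no value for any library. Depth is therefore unknown, no standard deviation can be given, and a p-value may hold only technical spread. Retention is given as 100 times the deposited ratio divided by 1 plus that ratio, so that an intron at 50% has as many reads for its retained as for its spliced form, and inclusion of an exon was computed likewise. An intron or exon is said to have risen or fallen where the deposited p-value, adjusted by the Benjamini-Hochberg method over its whole table, was under 0.05. The tables hold no expression values, so the cell type was not checked against its markers, and in bulk RNA a change in every cell cannot be told apart from a larger one in some of the cells.

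The introns beside cassette exons were short. Upstream introns had a median length of 219 nt, downstream introns 250.5 nt and whole-span introns, which contain a whole exon, 1033 nt, against 212 nt in the 2061 other introns. In WT cells their median retention was 28.3% upstream, 35.7% downstream and 50.1% over whole spans, against 35.9% in the other introns. The exons beside upstream and downstream introns were nearly always included, with a median WT inclusion of 96.8% and 96.7%. The exons inside whole-span introns were at 58.2%, against 91.0% over all 15519 exon events. Exon lengths were ordinary, with medians of 105, 111 and 95 nt beside upstream, downstream and whole-span introns and 109 nt over all exon events. The share of exons whose length was a multiple of 3, which keeps the reading frame, was 42.6%, 37.2% and 41.0% in the same order, against 43.5% over all exon events.

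In R749H cells whole-span introns rose in a larger share of cases than flanking ones. Of 626 introns beside cassette exons that were tested, 79 rose and 62 fell, 22.5% in all, where 18.9% of all 2605 introns changed, 11.9% rising and 6.99% falling. Whole-span introns rose in 26 of 107 cases and fell in 9, which is 24.3% and 8.41%. Their median log2 change was 0.74, against 0.04 over all introns. Upstream introns rose in 27 and fell in 28 of 287 cases, and downstream introns rose in 34 and fell in 30 of 290, so that both were near an even split. The rises reached at least 10 points in 58 cases and the falls in 32.

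In E1126G cells fewer introns changed and more fell than rose. Of 620 tested introns, 28 rose and 47 fell, 12.1% in all, where 9.18% of all 2615 introns changed, 4.51% rising and 4.67% falling. Upstream introns rose in 10 and fell in 21 of 279 cases, and downstream introns rose in 14 and fell in 20 of 288. Whole-span introns rose in 6 and fell in 7 of 110 cases, and their median log2 change was -0.02, equal to that over all introns. The rises reached at least 10 points in 20 cases and the falls in 28.

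**Figure D1:**
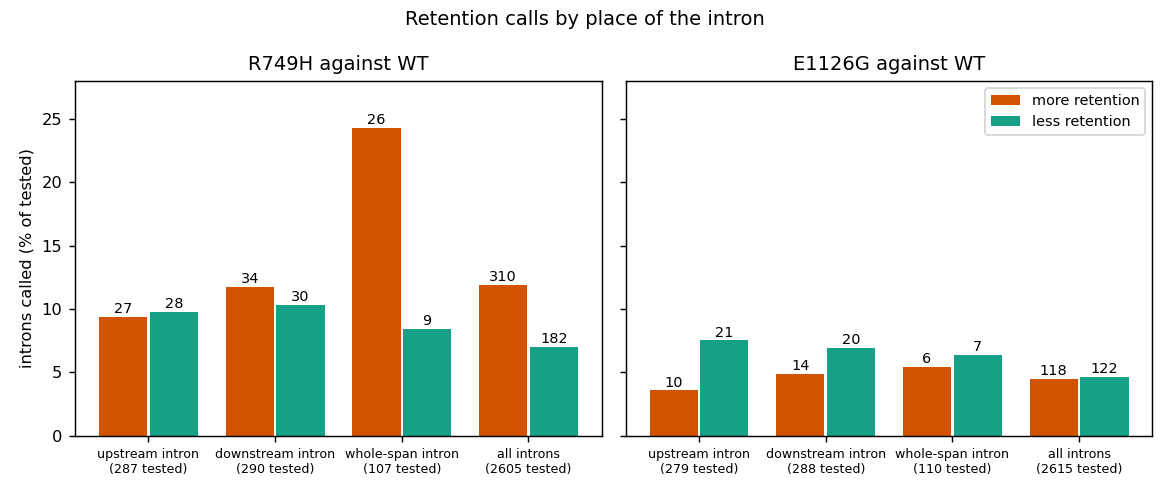
Share of tested introns whose retention rose or fell against WT (vertical axis, % of tested), by the place of the intron beside the exon and over all introns, in R749H (left) and E1126G (right), with the number of introns above each bar. Whole-span introns in R749H show 26 rises against 9 falls, while the other bars of a panel lie closer together, and an intron with 2 places is counted at each.

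The exons beside these introns changed as well. In R749H, 78 of 678 such exon events rose in inclusion and 34 fell, 16.5% in all, where 15.1% of all exon events changed, 7.07% rising and 8.04% falling. In E1126G, 39 of 705 rose and 36 fell, 10.6% in all, where 6.48% of all exon events changed, 2.2% rising and 4.27% falling.

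The largest rises of whole-span introns in R749H came with more inclusion of the exon inside. The 480-nt span of L3MBTL2, a Polycomb-type chromatin protein (chromosome 22, 41623328 to 41623807, GRCh37), was retained at 63.5% in R749H cells, against 9.93% in WT cells, in the authors' deposited table (log2 change 3.98, Benjamini-Hochberg adjusted p = 8.5e-12). Its 105-nt exon was included at 48.3% in R749H cells and 6.85% in WT cells in the authors' deposited table, so retention and inclusion rose together. The 523-nt span of TPCN1, an endolysosomal cation channel (chromosome 12, 113726040 to 113726562), stood at 94.4% in R749H and 80.3% in E1126G, against 46.6% in WT, in the authors' deposited table. Both were calls (adjusted p = 2.7e-11 and 0.017 by Benjamini-Hochberg). Its 32-nt exon was included at 64.7% in R749H cells, against 9.62% in WT cells, a rise with an adjusted p of 6.7e-05. RefSeq's gene table for assembly GRCh38.p14 lists the miRNA gene MIR6762 as overlapping TPCN1, and CHADL and L3MBTL2-AS1 as overlapping L3MBTL2. The library kit in the labels is not stated to keep the strand, so reads of such genes could not be separated.

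Spans of CLMN, calmin, and POFUT2, which adds fucose to secreted proteins, complete the 4 largest rises. CLMN was retained at 94.1% in R749H cells and 41.9% in WT cells, and POFUT2 at 78.2% and 28.6% in the same order, in the authors' deposited table. Their exons were included at 50% against 16.7% and at 63.5% against 43.8%, which did not pass (adjusted p = 0.32 and 0.20). The CLMN ratios in R749H reduce to small whole numbers, so few reads may stand behind them. The 347-nt span of WDR73 stood at 75.7% in R749H cells, against 39.5% in WT cells, and its 113-nt exon at 60.9% against 23.8%, in the authors' deposited table. CDCA7, a chromatin remodelling partner, had span retention of 71.7% in R749H cells and 50.2% in WT cells and exon inclusion of 27.2% and 5.90%. Both WDR73 and CDCA7 rose in retention and in inclusion.

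Of the 9 whole-span introns that fell in R749H, 4 held an exon whose inclusion also fell, and CARD19 and RSRC2 are among these. The 1496-nt span of CARD19 (chromosome 9, 95873004 to 95874499) was retained at 15.7% in R749H cells, against 50% in WT cells, and its 60-nt exon was included at 30.6% against 83.3%, in the authors' deposited table (adjusted p = 0.0015 and 3.0e-11). The 2355-nt span of RSRC2, an arginine- and serine-rich protein (chromosome 12, 123003577 to 123005931), fell in both mutants, to 12.2% in R749H and 15.6% in E1126G, against 34.2% in WT. Its 78-nt exon fell too, to 14.9% in R749H and 18.8% in E1126G, against 31.6% in WT, in the authors' deposited table. EXOSC8, a subunit of the RNA exosome, had 2 overlapping spans that differ at 1 end. The 1469-nt one was at 84.3% in R749H cells against 98.6% in WT cells, and the 1508-nt one at 14.8% against 26.1%, in the authors' deposited table. Both spans fell, and the inclusion of the 23-nt exon they contain did not pass for either.

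In E1126G the largest rise in points among these introns was that of the 332-nt span of TSPAN31, a tetraspanin (chromosome 12, 58140040 to 58140371). It was retained at 94.4% in E1126G cells and 17.2% in R749H cells, against 12.9% in WT cells, in the authors' deposited table (E1126G log2 change 6.84, adjusted p = 1.1e-65 by Benjamini-Hochberg). RefSeq lists CDK4 as overlapping TSPAN31, and since reads are not known to be assigned by strand, this value is uncertain. Spans of OGFOD2 and SHMT2, the mitochondrial serine hydroxymethyltransferase, fell in E1126G. OGFOD2 stood at 59.3% in E1126G against 76.7% in WT, and SHMT2 at 22.0% against 38.7%, in the authors' deposited table. The 1516-nt span of RSRP1, another arginine- and serine-rich protein, fell to 76.2% in E1126G cells, against 92.2% in WT cells, and its 45-nt exon fell to 34.7% against 76.7%, in the authors' deposited table. RefSeq lists RHD as overlapping RSRP1, ABCB9 as overlapping OGFOD2 and COXFA4L2 as overlapping SHMT2. Other genes named in this text have listed overlaps too, among them EXOSC8 (SUPT20H), WDR73 (SCAND2P), IDI1 (WDR37), MRNIP (SQSTM1) and UBXN11 (CD52). Further examples are METTL25B (ISG20L2), PRPF39 (FKBP3), HNRNPH3 (PBLD and RUFY2) and PPP1R35 (PPP1R35-AS1). Reads of these genes could not be separated either, and the examples are not complete.

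Among upstream introns, the largest rise in R749H was a 3545-nt intron of SCARB1, a receptor for high-density lipoprotein (chromosome 12, 125267358 to 125270902). It was retained at 78.6% in R749H and 47.4% in E1126G, against 22.8% in WT, in the authors' deposited table (adjusted p = 1.1e-13 and 0.0075 by Benjamini-Hochberg). The 129-nt exon that follows it fell in both, to 79.5% in R749H and 84.7% in E1126G, against 94.9% in WT. RASL-seq had the exon after this intron at 89.3% in R749H and 86.5% in E1126G, against 93.4% in WT. Neither passed there (adjusted p = 0.32 and 0.052 by Benjamini-Hochberg). In H1106Y, for which no intron value was used, the same exon fell to 74.9% (adjusted p = 3.1e-05 by Benjamini-Hochberg). Introns of ADD1, an actin-capping adducin, NAA40, a histone acetyltransferase, and the helicase gene DDX11 rose as well. ADD1 was at 75% in R749H cells against 20.0% in WT cells, and NAA40 at 70.4% against 29.8%, in the authors' deposited table, and neither exon passed (adjusted p = 0.37 for ADD1 and 0.68 for NAA40). The retention ratios of ADD1 reduce to small whole numbers, so few reads may stand behind them.

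In PPP1R35, FASTK and MRNIP a short upstream intron fell in R749H while the exon after it rose. The 80-nt intron of PPP1R35, a centriole protein (chromosome 7, 100033391 to 100033470), stood at 33.7% in R749H cells, against 66.1% in WT cells, and its exon at 98.3% against 92.1%, in the authors' deposited table (adjusted p = 2.9e-08 and 4.4e-04). The 73-nt intron of FASTK stood at 23.1% in R749H cells and 38.8% in E1126G cells, both falls, against 52.5% in WT cells, and its exon at 99.8% in R749H cells against 97.9% in WT cells. A 101-nt intron of MRNIP, which binds the MRN DNA repair complex, was at 34.9% in R749H cells against 62.7% in WT cells, and its 80-nt exon at 70.2% against 42.9%, in the authors' deposited table. A 614-nt intron of PRAME, a cancer-testis antigen, fell to 29.5% in R749H cells, against 58.5% in WT cells, with no call for its exon. FAM86B1 had the largest fall, to 27.5% in R749H cells against 70.0% in WT cells, but it has near-identical copies and its reads are uncertain, as are those of DDX11.

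In E1126G the upstream introns with the 4 largest rises were those of SCARB1, ZMYM5, a zinc finger protein, MPV17, an inner mitochondrial membrane protein, and RPP21, a subunit of ribonuclease P. Retention was 38.9% in E1126G against 9.09% in WT for ZMYM5, 32.1% against 12.7% for MPV17 and 42.5% against 27.0% for RPP21, in the authors' deposited table. The MPV17 intron rose in R749H too, to 35.0%. The exons after these introns of ZMYM5, MPV17 and RPP21 did not pass. The retention ratios of ZMYM5 reduce to small whole numbers, so few reads may stand behind them. Falls were seen in UBXN11, at 46.8% in E1126G and 56.5% in R749H against 76.1% in WT, in FAHD2B, which has near-identical relatives, at 17.5% against 38.4%, and in OS9, an endoplasmic reticulum lectin, at 5.84% against 12.4%. The OS9 exon rose, to 74.3% in E1126G against 61.1% in WT, in the authors' deposited table. RASL-seq had the exon after this intron at 34.1% in E1126G against 31.4% in WT, which did not pass. The OS9 exon rose there in R749H, to 59.6%, and in H1106Y, to 57.6%. A 90-nt intron of the ribosomal protein gene RPS9 fell to 20.2% in E1126G and 30.0% in R749H, against 43.9% in WT, although processed copies of such genes make its reads uncertain.

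Downstream introns that rose in R749H included some that were low in WT cells. The 733-nt intron of MICU2, a regulator of the mitochondrial calcium uniporter (chromosome 13, 22069458 to 22070190), was retained at 39.7% in R749H cells, against 1.94% in WT cells, in the authors' deposited table (log2 change 5.06, adjusted p = 1.5e-17 by Benjamini-Hochberg). It rose in E1126G too, to 14.7%. Its 109-nt exon fell to 93.9% in R749H cells, against 98.7% in WT cells. The 605-nt intron of IDI1, the isopentenyl diphosphate isomerase of sterol synthesis (chromosome 10, 1089334 to 1089938), rose in both mutants, to 35.9% in R749H and 37.0% in E1126G, against 6.17% in WT. Its 173-nt exon fell in both, to 42.6% in R749H and 70.1% in E1126G, against 88.3% in WT, in the authors' deposited table. GSDMB, a gasdermin, had 65.4% in R749H cells, against 34.5% in WT cells, and no call for its 27-nt exon.

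Falls of downstream introns in R749H included KCNC4, a voltage-gated potassium channel (chromosome 1, 110775220 to 110775532), at 67.9% in R749H and 59.4% in E1126G, against 97.0% in WT, in the authors' deposited table. Its 377-nt exon was included at 94.7% in R749H and 81.3% in E1126G, against 48.0% in WT, and passed in R749H (adjusted p = 0.012) but not in E1126G (adjusted p = 0.12). PFDN5, a prefoldin subunit, had retention of 38.5% in R749H and 48.7% in E1126G, both falls, against 72.7% in WT. In R749H its exon was included at 28.8%, against 14.5% in WT, a rise. IL12A, the p35 chain of interleukin 12, fell to 15.0% in R749H against 52.6% in WT, and PIGQ, of glycolipid anchor synthesis, to 21.7% against 45.0%, in the authors' deposited table. The exons of IL12A and PIGQ did not pass. The retention ratios of IL12A reduce to small whole numbers, so few reads may stand behind them.

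In E1126G the other large downstream changes were rises in MSTO1, which has a near-identical copy, at 67.6% in E1126G against 45.3% in WT, and MSH5, a meiotic MutS homologue, at 59.4% against 40.7%, and a fall in METTL25B, at 26.4% against 53.4%, in the authors' deposited table. In R749H the MSTO1 intron also rose, to 73.3%, and the METTL25B intron fell, to 30.2%, in the authors' deposited table. The intron of MPV17 given above also lies downstream of another exon. Introns of DENND5A, a regulator of Rab proteins, and ECI2, a fatty acid oxidation enzyme, rose while their exons fell. DENND5A stood at 25.2% retention in E1126G against 9.34% in WT and 76.6% inclusion against 94.0%, and ECI2 at 8.93% retention against 3.67% and 89.5% inclusion against 97.7%, in the authors' deposited table. In R749H these introns also rose, to 23.0% and 18.9% retention.

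Across introns, retention and inclusion mostly changed in the same direction over a whole span in RNA-seq, while beside an exon opposite directions were somewhat more frequent and close to an even split upstream in R749H. One pair was formed per intron and place, with the exon event of smallest p where an intron had several, a choice that favours exons that changed. In R749H, 141 of 267 upstream pairs were opposite, 125 the same and the remaining one without change, with Pearson's r of -0.23 and Spearman's rho of -0.19. Downstream, 163 of 269 were opposite and 106 the same (r -0.27, rho -0.21). Over whole spans, 25 of 107 were opposite and 82 the same (r 0.74, rho 0.74). These r and rho are across introns, which share libraries and, in part, genes, so they describe these pools and carry no test.

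Pairs in which intron and exon both changed were more one-sided than all pairs. In R749H, 14 of 14 such upstream pairs were opposite, 7 with the intron up and 7 with it down. Downstream, 10 of 13 were opposite, and the 3 others rose in both. These 3 were introns of SH3BP2, TCOF1 and UQCRQ, named after their values were seen. SH3BP2 had retention of 32.6% in R749H against 5.88% in WT and inclusion of 97.1% against 85.7%, in the authors' deposited table. Over whole spans, 19 of 19 had the same direction, 15 up and 4 down. Reads of the skipping junction can stand in both ratios of such a pair, so a common direction can follow from how the ratios are built. Beside an exon, reads of the inclusion junction can stand in both ratios, so opposite directions can follow likewise.

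In E1126G the pattern of signs was like that, with fewer pairs changed. Upstream, 162 of 276 pairs were opposite and 114 the same (r -0.23, rho -0.25), and 4 of 4 with both called were opposite. Downstream, 165 of 274 were opposite and 109 the same (r -0.27, rho -0.23), and 8 of 8 with both called were opposite. Over whole spans, 38 of 110 were opposite and 72 the same (r 0.54, rho 0.51), and 4 of 4 with both called had the same direction, 1 up and 3 down. The R749H and E1126G values rest on the same WT libraries, and the limit from shared reads holds here too.

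**Figure D2:**
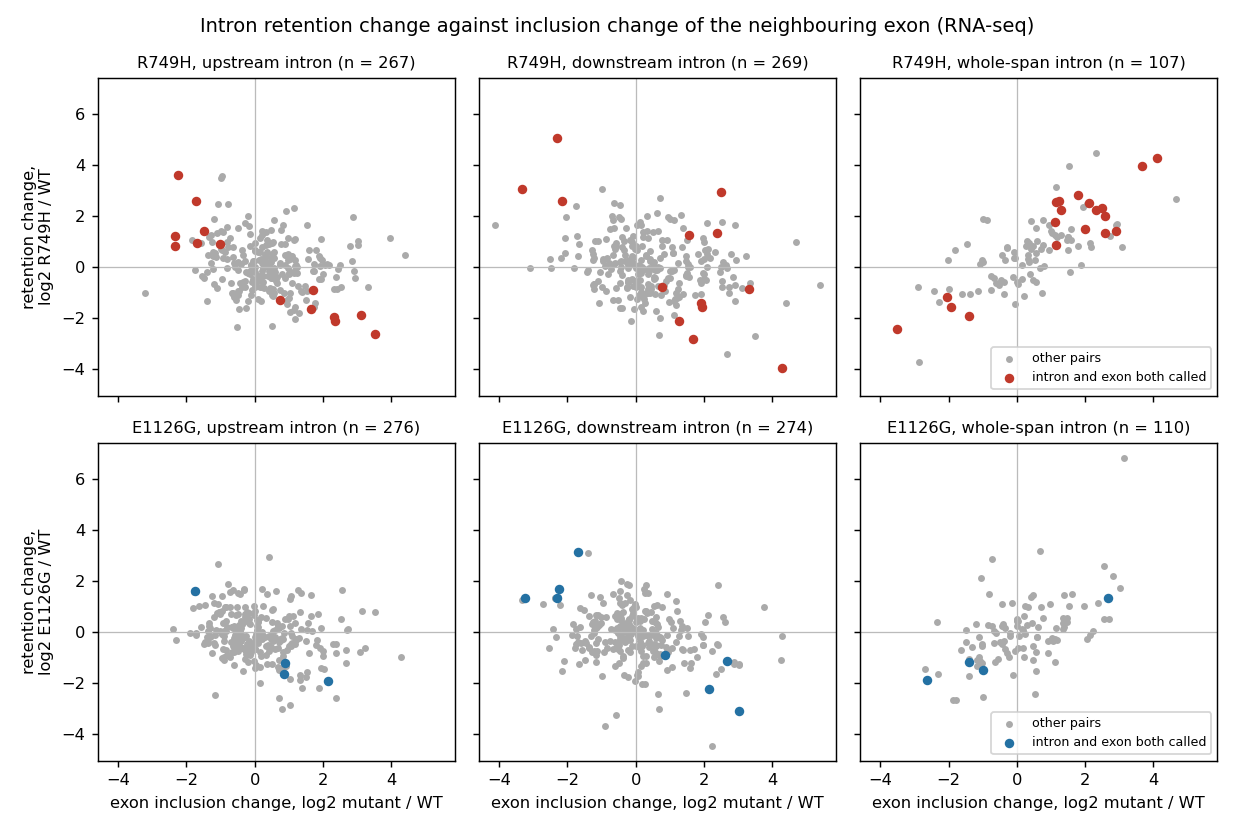
Log2 change of intron retention (vertical axis) against log2 change of inclusion of the neighbouring exon (horizontal axis) in RNA-seq, for R749H (top) and E1126G (bottom) and for upstream, downstream and whole-span introns from left to right, each point 1 intron and coloured where intron and exon both changed. Coloured points lie mostly in the upper left and lower right beside an exon, 14 of 14 upstream in R749H, and in the upper right and lower left over a whole span, 19 of 19 in R749H. Reads shared by both ratios can by themselves give a common direction over a whole span and opposite directions beside an exon.

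The 2 ratios of a pair are linked by how they are built. By coordinates, splicing a flanking intron out makes an inclusion junction of the exon, and splicing a whole span out makes its skipping junction. Reads of that junction can therefore stand in both ratios of a pair. The sources used here do not say whether they do, but the values show it for some whole spans. In TPCN1, L3MBTL2 and WDR73, retention and inclusion reduce to whole-number ratios over the same number, in R749H and in WT. A change in such a shared count moves both ratios the same way. The signs over whole spans therefore cannot tell a link between retention and inclusion from the shared count. For flanking introns the values were not read in this way. Where the count of an inclusion junction is shared, a change in it moves the ratios of a flanking pair in opposite ways. The signs beside an exon then cannot tell a link from the shared count either. The part of shared reads in the signs was not tested within RNA-seq.

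Inclusion changes were described beside the risen and fallen introns of each place. In R749H, the exons inside the 26 whole-span introns that rose were more included in 26 of 26 cases, by a median of 17.99 percentage points (1.399 on the log2 scale) from a median WT inclusion of 14.7%. Inside the 9 that fell, 7 exons were less included and the median change was -9.36 points. As said above, reads shared by both ratios of a span can give such a common direction by themselves. Beside the 26 upstream introns that rose and had an exon value, the median was -0.42 points (log2 -0.79), and beside the 34 downstream ones 0.02 points (log2 -0.04). Those exons had a median WT inclusion of 98.6% and 97.5%, which leaves little room for a rise in points. Whether this shaped the medians was not tested. Beside fallen introns in R749H the medians were 0.07 points upstream (log2 0.23) and 0.33 points downstream (log2 0.26). These were no higher than beside introns that were not called, at 0.42 points upstream (log2 0.37) and 0.35 points downstream (log2 0.36). In E1126G the 6 risen spans had a median of 5.31 points and the 7 fallen ones -12.8 points. Beside its risen introns the median was -0.77 points (log2 -0.75) upstream and -2.02 points (log2 -0.96) downstream. Beside its fallen introns it was 1.25 points (log2 0.85) upstream and 2.12 points (log2 0.53) downstream. Introns that were not called had 0.005 points upstream and -0.004 points downstream. Reads shared by both ratios can give opposite directions beside an exon.

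Among genes of splicing factors and their kinases, 7 of 11 whole-span introns rose in R749H and none fell, where 26 of the 107 whole spans beside any cassette exon rose. A list of 65 such genes held 27 of these introns in 18 genes, of which 10 rose and 1 fell in R749H, 40.7% called where 18.9% of all introns were, with a median log2 change of 0.73 against 0.04 over all introns. In E1126G, 2 rose and 3 fell, 18.5% called where 9.18% of all introns were, with a median of 0.04 against -0.02. The list was drawn up with earlier results of these data known.

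CLK1 and CLK4 are kinases that phosphorylate SR proteins. The 1491-nt span of CLK1 (chromosome 2, 201724470 to 201725960) was retained at 87.8% in R749H and 46.6% in E1126G, against 50.2% in WT, in the authors' deposited table (adjusted p = 8.3e-14 and 0.84 by Benjamini-Hochberg). Its 91-nt exon was included at 81.0% in R749H and 71.7% in E1126G, against 55.2% in WT. The exon thus rose in both mutants and the span in R749H. CLK4, its close relative, has a 91-nt exon as well, inside a 1607-nt span (chromosome 5, 178043950 to 178045556) that stood at 86.0% in R749H and 52.8% in E1126G, against 54.7% in WT, in the authors' deposited table. The CLK4 exon was at 92.3% in R749H and 90.4% in E1126G, against 68.0% in WT.

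Within CLK4, the introns on either side of the exon fell in E1126G. The 1121-nt upstream intron was at 42.8% in R749H and 15.9% in E1126G, against 41.5% in WT, and the 395-nt downstream intron at 59.8% in R749H and 23.9% in E1126G, against 59.5% in WT, in the authors' deposited table. The adjusted p-values were 0.0044 and 0.0051 in E1126G and 0.95 and 0.99 in R749H. The difference between the mutants did not pass an approximate test for the span, the upstream or the downstream intron of CLK4 (adjusted p = 0.16, 0.069 and 0.10).

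Of the SR proteins and their partners, SRSF7 had an 875-nt span (chromosome 2, 38975796 to 38976670) at 71.5% in R749H and 35.3% in E1126G, against 38.5% in WT, in the authors' deposited table. Its 449-nt exon was at 66.8% in R749H and 33.9% in E1126G, against 25.3% in WT. Span and exon both rose in R749H (adjusted p = 4.2e-13 and 6.1e-18) and neither passed in E1126G. SRRM1, an SR-related coactivator of splicing, had a 2069-nt span (chromosome 1, 24973281 to 24975349) at 69.8% in R749H and 43.4% in E1126G, against 27.5% in WT, in the authors' deposited table. It rose in R749H (adjusted p = 1.6e-06) and missed the threshold in E1126G (adjusted p = 0.19), while its 130-nt exon rose in both, to 54.1% in R749H and 59.2% in E1126G, against 33.3% in WT.

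TRA2A, an SR-like activator of exons, held the largest fall of the list in points, in E1126G. The 280-nt intron downstream of its 312-nt exon (chromosome 7, 23561460 to 23561739) was at 78.1% in R749H and 43.2% in E1126G, against 86.5% in WT, in the authors' deposited table (adjusted p = 0.22 and 1.7e-09). The exon rose in both mutants, to 58.8% in R749H and 83.3% in E1126G, against 37.9% in WT. The other TRA2A introns listed, of 291 and 513 nt, end at the same place and begin at other ends of the exon, so they share reads. They stood at 84.2% and 96.7% in R749H and at 83.4% and 93.5% in E1126G, against 92.3% and 97.0% in WT, in the authors' deposited table, and did not pass.

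RNA-binding regulators and U1-associated factors held the remaining calls. TIAL1, a U-rich RNA binder (329-nt span on chromosome 10, 121336263 to 121336591), was retained at 84.2% in R749H and 66.5% in E1126G, against 47.5% in WT, in the authors' deposited table, a rise in both. Spans of RBM39, a U2AF-related factor, and PRPF39, a U1 factor, rose in R749H, to 63.5% against 41.9% in WT and to 85.5% against 62.6% in WT, in the authors' deposited table. The upstream intron of PNISR rose to 80.6% in R749H, against 61.1% in WT, while its 54-nt exon fell to 79.2% against 91.4%. The downstream intron of LUC7L, another U1 factor, rose to 94.99% in R749H, against 84.6% in WT. RBM5, a regulator of splicing in apoptosis genes, rose in both mutants, to 91.7% in R749H and 86.8% in E1126G, against 74.9% in WT.

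HNRNPC, which coats U-rich RNA, had the 1 fall of the list in R749H. Its 99-nt downstream intron was at 1.13% in R749H and 4.03% in E1126G, against 4.67% in WT, in the authors' deposited table. The introns of HNRNPA1, HNRNPH1, HNRNPH3, RBM25, SF1 and U2AF1 did not pass in either mutant, and HNRNPA1 has processed copies that make its 292-nt intron, at 0.60% in R749H and 1.14% in E1126G against 0.72% in WT, uncertain.

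**Figure D3:**
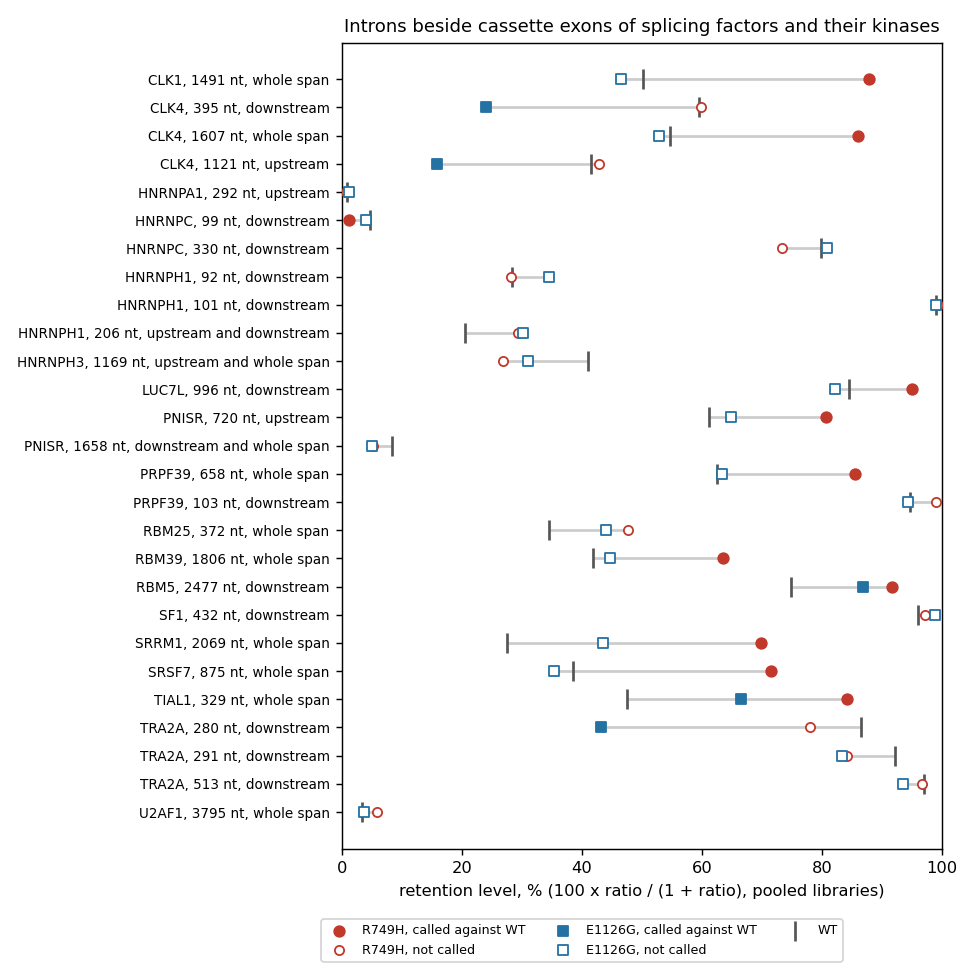
Retention level (horizontal axis, %, pooled libraries) of the 27 introns beside cassette exons of splicing factors and their kinases, 1 per line, in R749H (circles), E1126G (squares) and WT (bars), filled where the mutant changed against WT. Whole-span introns of CLK1, CLK4, PRPF39, RBM39, SRRM1, SRSF7 and TIAL1 have R749H far to the right of WT, and the 280-nt TRA2A intron and both CLK4 flanking introns have E1126G far to the left.

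RBM3, a cold-inducible RNA-binding protein outside that list, showed all 3 places at once. Its 646-nt span (chromosome X, 48434056 to 48434701) was retained at 57.2% in R749H and 37.2% in E1126G, against 18.8% in WT, in the authors' deposited table. The 269-nt exon within it was at 18.3% in R749H and 24.8% in E1126G, against 4.93% in WT, a rise in both. The 230-nt intron downstream of the exon was at 92.3% in R749H and 77.4% in E1126G, against 88.0% in WT, and fell in E1126G (adjusted p = 0.025 by Benjamini-Hochberg). The upstream one was at 92.9% in R749H and 83.6% in E1126G, against 92.2% in WT, and did not pass. The 646-nt intron also follows a 107-nt exon, which was at 96.7% in E1126G against 99.6% in WT, a fall.

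Where both introns of an exon were listed, they tended to move together. In R749H, 42 of 53 such upstream and downstream pairs had the same direction and 11 the opposite (r 0.55, rho 0.43). In E1126G it was 40 and 13 of 53 (r 0.61, rho 0.55). Both introns changed in 7 pairs in R749H and in 6 in E1126G, in the same direction every time. The upstream intron and the span had the same direction in 19 of 28 exons in R749H and 20 of 29 in E1126G (rho 0.33 and 0.05). The downstream intron and the span did so in 18 of 23 in R749H and 13 of 24 in E1126G (rho 0.60 and 0.06). Introns of a span share an end, and exons of a gene can share an intron, so these pairs are not independent.

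The genes with both introns changed were named after their values were seen, apart from CLK4, DDX11 and RPS9. In GAS5 the introns on the 2 sides of a 23-nt exon fell in both mutants, to 8.81% and 6.79% in R749H and to 7.51% and 7.03% in E1126G, against 13.5% and 11.5% in WT, upstream first, in the authors' deposited table. In SNHG29 those beside a 176-nt exon fell to 2.14% and 2.73% in R749H and to 4.10% and 4.43% in E1126G, against 9.81% and 8.08% in WT. The exon itself was included at 62.3% in R749H and 64.6% in E1126G, against 62.3% in WT, and the GAS5 exon at 97.2% in R749H and 97.5% in E1126G, against 97.2% in WT, in the authors' deposited table. Neither exon passed.

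In C1orf35 both introns of a 73-nt exon fell, to 9.94% and 16.2% in R749H and 12.0% and 14.7% in E1126G, against 24.7% and 35.1% in WT. DDX11 gave the largest common rise, in R749H, with 68.6% upstream and 88.5% downstream, against 16.1% and 47.6% in WT, in the authors' deposited table. AP1G2, an adaptor subunit of vesicle coats, rose on both sides of a 77-nt exon in R749H, to 91.7% and 67.5% against 80.0% and 53.5% in WT. RPL13 and RPS9, ribosomal protein genes, made up the 7 in R749H. MARS1, RPS9 and CLK4 joined GAS5, C1orf35 and SNHG29 in E1126G.

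**Figure D4:**
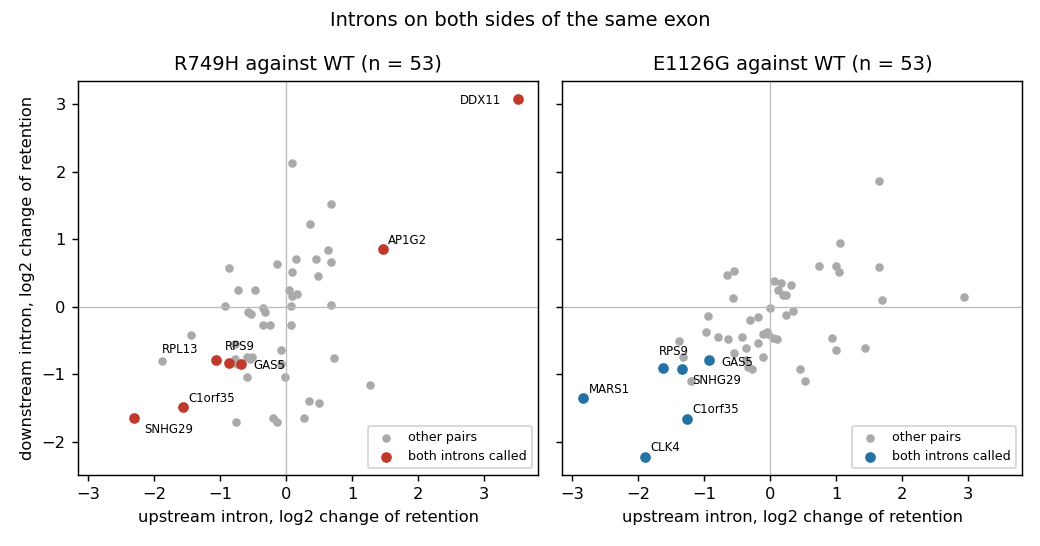
Log2 change of retention of the downstream intron (vertical axis) against that of the upstream intron (horizontal axis) of the same exon, for R749H (left) and E1126G (right), 53 exons each, coloured and named where both introns changed. All coloured points lie in the upper right or lower left, and in E1126G all 6 lie in the lower left.

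RASL-seq gave inclusion values for some of the same exons from libraries of its own, so no read is shared with the intron values. In that assay 44.1% of all exon events changed in R749H, 61.9% in H1106Y and 47.5% in E1126G. Over whole spans, 10 of 15 pairs had the same direction in R749H (r 0.75, rho 0.76) and 9 of 15 in E1126G (r 0.53, rho 0.46). Where intron and RASL-seq exon both changed, 4 of 4 spans in R749H and 3 of 3 in E1126G had the same direction. They were CLK1, SRSF7, RBM3 and RSRC2 in R749H and RBM3, RSRC2 and RSRP1 in E1126G.

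The CLK1 exon was included at 26.9% in R749H, 37.7% in H1106Y and 16.5% in E1126G, against 9.25% in WT, in the authors' deposited table of RASL-seq. That of SRSF7 was at 51.3% in R749H, 73.9% in H1106Y and 31.9% in E1126G, against 22.5% in WT. RBM3 stood at 28.7% in R749H, 37.8% in H1106Y and 24.5% in E1126G, against 8.15% in WT, in the authors' deposited table. All of these were rises, in each mutant, and H1106Y had the highest level. The RSRC2 exon fell in each, to 12.1% in R749H, 6.94% in H1106Y and 5.86% in E1126G, against 16.8% in WT. Levels of the same exon differed between RASL-seq and RNA-seq, for instance 9.25% and 55.2% for CLK1 in WT, so they are compared within an assay.

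**Figure D5:**
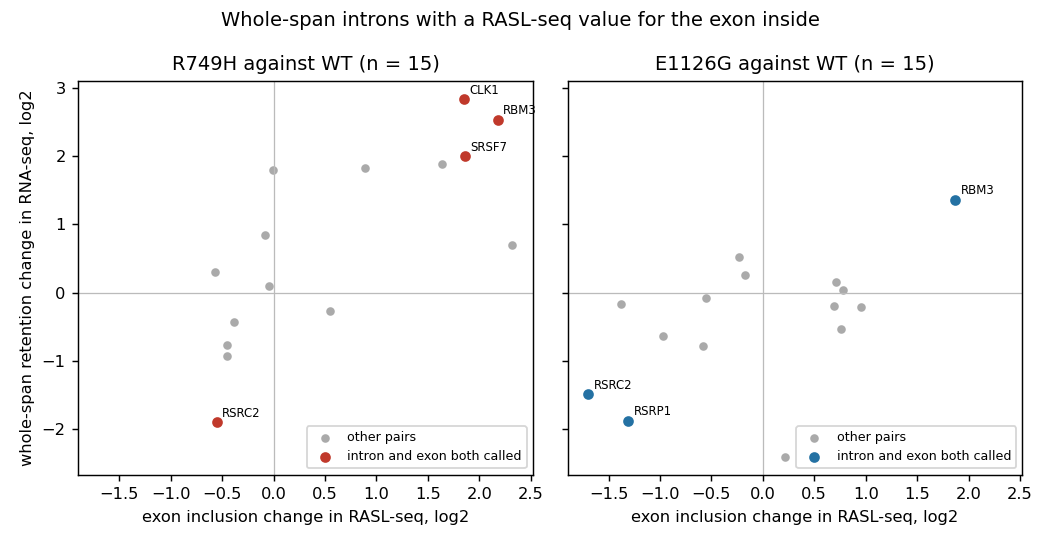
Log2 change of whole-span retention in RNA-seq (vertical axis) against log2 change of inclusion of the exon inside in RASL-seq (horizontal axis), for R749H (left) and E1126G (right), 15 introns each, coloured and named where both changed. The named points lie in the upper right or lower left, with CLK1, RBM3 and SRSF7 highest in R749H.

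Beside an exon, RASL-seq gave no common sign. In R749H, 8 of 17 upstream pairs were opposite and 9 the same (rho -0.09), and downstream 6 of 25 were opposite and 19 the same (rho 0.20). In E1126G, 11 of 14 upstream pairs were opposite (rho -0.58), as were 15 of 26 downstream pairs (rho -0.38). One RASL-seq exon value can stand in several downstream pairs, as for TRA2A and CCNL2 in both mutants. These pairs are therefore not independent. Of upstream pairs with both changed, the 1 in R749H had the same direction and the 1 in E1126G was opposite. Of downstream pairs with both changed, 2 of 6 were opposite in R749H and 2 of 3 in E1126G. In E1126G these were TRA2A, whose exon rose to 90.8% in E1126G against 81.9% in WT in the authors' deposited table of RASL-seq, and RBM3. In R749H that TRA2A exon stood at 81.6% in RASL-seq and did not pass (adjusted p = 0.93), although it rose in RNA-seq, and in H1106Y it fell to 73.6%, in the authors' deposited table. RBM5 rose in both measures in R749H and in E1126G. In RNA-seq the exon beside its intron was at 89.0% in R749H and 84.9% in E1126G, against 91.7% in WT, and did not pass. In R749H DDX11 rose in both measures, as did CCNL2, a cyclin of splicing kinases, for 2 overlapping introns. The opposite pairs in R749H were AKT2, with retention of 3.09% against 7.71% in WT, and TRIM41, with 77.7% against 54.8%. CCNL2 retention was 98.6% and 99.2% in R749H, against 96.9% and 97.9% in WT, in the authors' deposited table. CCNL2, AKT2 and TRIM41 were named after their values were seen.

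The mutants were compared with each other by an approximate z whose errors were back-calculated from each deposited p-value, adjusted over 2521 introns present in both tables. Of 608 introns beside cassette exons, 28 differed, where 3.05% of all introns did. In 21 of them retention was higher in R749H and in 7 higher in E1126G. SRSF7 and CLK1 were higher in R749H, with differences in log2 change of 2.20 and 3.05 (adjusted p = 1.7e-06 and 2.9e-06 by Benjamini-Hochberg). PPP1R35 and HNRNPC were lower in R749H, with differences of -1.78 and -1.87 (adjusted p = 0.0026 and 0.015). This z takes the comparisons as independent although they share the WT libraries.

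Introns that rose were longer than those that fell, except over whole spans. In R749H the median length was 326 nt for risen and 112.5 nt for fallen upstream introns, and 480 and 212.5 nt for downstream ones. Whole spans had 851 nt where they rose and 1469 nt where they fell. Over all introns these medians were 460 and 151 nt, so the order of the flanking introns was that of the series as a whole. In E1126G the medians were 246.5 and 168 nt upstream, 553.5 and 255 nt downstream and 501.5 and 1469 nt over whole spans, against 397.5 and 167.5 nt over all introns. Risen upstream introns in R749H also started lower, at a median WT retention of 13.9%, against 31.0% for fallen ones.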

How the data were processed

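Each deposited table holds one row per skipped exon or retained intron with 3 values made by the authors: the natural log of inclusion over exclusion reads in WT, the log2 ratio of mutant to WT, and an unadjusted p-value. Per the labels' protocols, read pairs of 100 nt were mapped by TopHat 1.4.1, each replicate alone, and the submitters' processing notes name Bowtie 0.12.7, edgeR 3.7.17 and build GRCh37 without a role. The test behind the deposited p-value, how reads were counted for a retained intron, and whether introns were filtered before deposit are not stated in the sources at hand, so the precision behind a value is unknown. Tables named by a code were assigned to R749H, since the R749H samples' labels cite them. The log base was checked on the values: 78.3% of WT ratios of the introns beside cassette exons in the R749H table were whole-number ratios with the natural log (denominator up to 300, relative tolerance 1e-09), against 0.160% with base 2. A higher intron value was read as retention because 40 of 45 gaps under 40 nt, too short to splice, lay above 50%.

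Introns were matched to exons by chromosome, strand, start and end, and coordinates are printed 1-based. Benjamini-Hochberg adjustment of the deposited p-values ran over each whole table (SciPy 1.17.1, pandas 2.3.3, NumPy 2.4.6, Python 3.11.15; figures with matplotlib 3.10.9), and the calling step was tested on simulated data. Genes were named by rule: per mutant and place the 4 largest rises and 4 largest falls in points among called introns, up to 12 pairs with intron and exon both called, and the splicing factor list. The introns, lists and tests were chosen with earlier results of these data known. Alternatives were thresholds of 0.01 and 0.1, the Benjamini-Yekutieli adjustment, a change of at least 10 points, WT levels of 5% to 95%, changes in points in place of log2, all intron and exon pairs, introns with a single exon event and place, changes centred on the median of each whole table or of all introns, and no intron under 40 nt. No column of per-sample values was left unused (0), and the 16 GRO-seq samples were not used here. No genome of the build was used, so no intron sequence is printed.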

Additional observations from a re-analysis of the deposited data

Results flagged for a closer look

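Introns flagged here are named ones whose change differed between R749H and E1126G, by the approximate z on the difference of their log2 changes (adjusted by Benjamini-Hochberg over all introns in both tables). Retention was relatively higher in R749H for whole-span introns of CLMN (R749H minus E1126G, 4.08 on the log2 scale), CLK1 (3.05), POFUT2 (2.74), L3MBTL2 (2.46), SRSF7 (2.20), CDCA7 (1.60) and TIAL1 (1.42). It was also higher for the upstream and downstream introns of DDX11 (2.77 and 2.47), the upstream intron of SCARB1 (2.02), and the downstream introns of TRA2A (2.23, 280 nt) and RBM3 (1.81, 230 nt). The differences of TRA2A and RBM3 came with a fall in E1126G. Retention was relatively lower in R749H for the span of TSPAN31 (-6.35), the downstream intron of HNRNPC (-1.87) and the upstream intron of PPP1R35 (-1.78). TSPAN31 shares its ground with CDK4, and DDX11 has near-identical copies. L3MBTL2, PPP1R35, SCARB1 and TIAL1 also have listed overlaps. The part of these in the differences was not tested.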

How the results depend on the processing

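Of 112 values recomputed under an alternative, 96 lay within 1.5 times a count or within the 95% interval of a share or rho, 16 moved and 0 reversed. The intervals take pairs as independent, which they are not, and the alternatives reuse the same data. Lying within an interval is therefore a weak check. The intervals of rho are wide with few pairs: against RASL-seq in R749H, changes in points gave rho -0.30 upstream and 0.38 downstream, against -0.09 and 0.20 as reported, and WT levels of 5% to 95% gave -0.28 upstream. The risen and fallen introns in R749H, 79 and 62 as reported, numbered 50 and 34 with the Benjamini-Yekutieli adjustment, and the fallen ones 37 at a threshold of 0.01 and 32 with at least 10 points. In E1126G, 28 rose and 47 fell as reported, against 10 and 18 at 0.01, 6 and 16 with Benjamini-Yekutieli, and 28 falls with at least 10 points. These rules are stricter by construction. With WT inclusion and retention both at 5% to 95%, rho for upstream pairs was -0.39 in R749H (75 pairs) and -0.37 in E1126G (75). In R749H opposite pairs then made up 54.0% downstream (87 pairs) and 14.3% over whole spans (63), and in E1126G 74.4% downstream with rho -0.50 (90). Against RASL-seq, rho for downstream pairs in E1126G was then -0.73 (12 pairs). The cause of these shifts was not tested. No paired analysis was possible because the deposited tables hold no value per library, and for the same reason no library could be left out. Depth is unknown, the p-values rest on 2 libraries a group, and introns of low read number cannot be picked out with certainty. A ratio that reduces to small whole numbers, as for CLMN in R749H and for ADD1, IL12A and ZMYM5, may rest on few reads. The same holds for the WT retention of CARD19 and FAM86B1 and for the KCNC4 exon in R749H and WT. These are examples, and other values may rest on few reads too.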
